A study of Homo sapiens with 18 samples.

Results

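The genes of the opioid receptor family and the gene of the opioid growth factor receptor were followed in SH-SY5Y, a human neuroblastoma cell line in long-established use. The 5 genes, OPRM1, OPRD1, OPRK1, OPRL1 and OGFR, were taken from the 58735 rows of the count table by their Ensembl identifiers, with symbols from GENCODE 29. All cultures, Control included, first received 10 µM all-trans retinoic acid over 7 days to differentiate them, and were then exposed for 15 min to water (Control), to morphine at 193 nM, to metamorphine at 169 nM, or to TRV130, beta-endorphin or naloxone at 200 nM each. Each of the 6 groups had 3 libraries, and the labels do not say whether these came from separate cultures, so that the spread behind every p-value is one between libraries and may be technical. Library names end in a code, written here as A (7 libraries), B (6) and C (5). For TRV130, 2 libraries whose code has a digit before that of A were read as A and the remaining 1 is B, with no library of C, whereas each of the other groups had 1 library of each code. What a code stands for is not stated in the labels.

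The mu, delta and kappa opioid receptors, made from OPRM1, OPRD1 and OPRK1, are cell-surface receptors that couple to inhibitory G proteins, lower cyclic AMP, open inwardly rectifying potassium channels and close voltage-gated calcium channels. The nociceptin receptor, made from OPRL1, belongs to the same family by sequence but binds nociceptin and not the classical opioid peptides. OGFR is unrelated to them in structure: it is a nuclear-envelope protein that binds methionine-enkephalin, also called opioid growth factor, and is known for slowing cell proliferation. Morphine and TRV130 act mainly at the mu receptor, beta-endorphin is a natural peptide cut from the precursor POMC that binds mu and delta receptors, and naloxone blocks opioid receptors. SH-SY5Y cells are widely used in opioid research because they carry mu and delta receptors.

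The sequence upstream of OPRM1 and OPRD1 is shown because these are the members whose levels moved most, and together, between library codes. Each run is the 250 bases before a RefSeq start site on the plus strand of GRCh38.p14, and capitals mark the GC box GGGCGG, searched on both strands.
OPRM1, chr6:154038852-154039101: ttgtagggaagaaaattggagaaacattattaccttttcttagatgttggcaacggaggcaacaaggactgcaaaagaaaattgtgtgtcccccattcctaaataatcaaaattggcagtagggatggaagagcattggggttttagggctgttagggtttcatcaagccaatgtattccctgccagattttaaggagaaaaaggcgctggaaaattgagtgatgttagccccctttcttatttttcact
OPRD1, chr1:28811920-28812169: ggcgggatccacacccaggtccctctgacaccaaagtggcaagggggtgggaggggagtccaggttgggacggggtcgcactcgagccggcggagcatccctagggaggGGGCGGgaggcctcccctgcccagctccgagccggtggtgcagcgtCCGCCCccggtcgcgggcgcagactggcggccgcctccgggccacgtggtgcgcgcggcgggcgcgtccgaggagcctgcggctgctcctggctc
The OPRM1 window holds no GC box, a GC content of 40.4% and 2 CpG dinucleotides. That of OPRD1 holds 2 GC boxes, 1 in each orientation, a GC content of 76% and 27 CpG dinucleotides. RefSeq lists 5 start sites for OPRM1, from which the most upstream of a cluster was taken, and none of the 5 windows holds a GC box, with GC contents of 29.6% to 59.6%. The window of OPRL1 (chr20:64079832-64080081) holds 3 GC boxes at a GC content of 84.4%, and that of OGFR (chr20:62804585-62804834) holds 5 at 78%. Of 35114 windows of the same length in the table, 42.6% hold a GC box, and the median GC content is 58%. The other motifs searched on both strands were the TATA box (TATAAA), the cyclic AMP response element (TGACGTCA), the AP-1 site (TGACTCA), a nuclear receptor half-site (AGGTCA), the E-box (CANNTG) and its form CACGTG, which overlaps the E-box. OPRD1 has CACGTG once, which 6.35% of windows hold, and no further match was found in the windows of the 4 genes. These matches are descriptions of letters and not of bound sites.

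Totals per library ran from 21211449 to 33123855 counts, 46594 genes had at least 1 count, and no pair of libraries was identical. The defining markers of the line were abundant: the summed level of 8 noradrenergic neuroblastoma markers, among them DBH and PHOX2A, lay between 4923 and 6792 CPM (counts scaled to library size) in the 18 libraries. That of 9 mesenchymal-state markers lay between 225 and 324 CPM, with TWIST1 averaging 172 CPM. Summed CPM of 6 immune markers was at most 12.9, of 6 epithelial markers at most 15.1 and of 6 Schwann and glial markers at most 13.9, and the highest value of each of these 3 sums was in Control 1. That library held 20888 reads in 3647 protein-coding genes whose median count over the libraries was 0, against 3074 in Naloxone 1, 1495 in Naloxone 2 and 276 to 1052 in the other libraries. Within code A, the library sizes of Control 1, TRV130 1 and TRV130 2 took scaling factors of 0.870 to 0.887 and those of the other 4 libraries 1.02 to 1.05, and mitochondrial reads were 13.3% to 17.7% and 6.15% to 10.1%.

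The mu, delta and nociceptin receptor genes and OGFR were read in every library, and the kappa receptor gene was hardly read at all. OPRD1 (ENSG00000116329, chromosome 1, 28812142 to 28871267, plus strand) averaged 88.8 ± 40.5 CPM (SD, n = 18), where library totals were scaled by the trimmed mean of M values (TMM). OPRM1 (ENSG00000112038, chromosome 6, 154010496 to 154246867, plus strand) averaged 11.8 ± 5.39 CPM, from 114 to 610 reads per library. OPRL1 (ENSG00000125510, chromosome 20, 64080173 to 64100643, plus strand) averaged 16.7 ± 2.32 CPM. In bulk RNA, fewer cells with a transcript and less of it per cell cannot be told apart. OGFR (ENSG00000060491, chromosome 20, 62804835 to 62814000, plus strand) averaged 66.6 ± 13.2 CPM and varied least of the abundant members apart from OPRL1.

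OPRK1 (ENSG00000082556) had 22 reads in all 18 libraries together. It had 7 reads in Control 1, 4 each in Morphine 2 and Naloxone 1, 2 each in Metamorphine 2, TRV130 3 and Naloxone 2, 1 in Beta-endorphin 3 and 0 in the remaining 11. A count of 0 allows up to 3 reads, which is 0.0966 to 0.142 CPM in those 11 libraries, for counting error only. The library with the most OPRK1 reads was Control 1, the library with the most reads in otherwise silent genes. OPRK1 did not pass the low-count filter and was not tested, so 4 of the 5 members enter every test that follows.

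Transcripts of different genes can be compared only per length. Divided by the union of annotated exons, OGFR averaged 14.2 ± 2.80 CPM per kb, OPRD1 9.50 ± 4.34, OPRL1 4.72 ± 0.653 and OPRM1 1.45 ± 0.662. On this scale OGFR stands above OPRD1, the reverse of their order in CPM, but their libraries overlap (11.7 to 20.7 and 4.67 to 19.8 CPM per kb). OPRL1 ran from 3.53 to 5.90 CPM per kb and overlapped the low end of OPRD1. The lowest OPRL1 library lay above the highest OPRM1 library, which held 2.57 CPM per kb. The exon union of OPRM1 (8135 bases) includes many alternative exons, so its level per kb depends on which are used.

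No member passed the test after 15 min of any ligand. By the quasi-likelihood test of edgeR, with p adjusted by Benjamini-Hochberg over 23231 genes, 0 of the 4 tested members passed an adjusted p of 0.05 in any of the 5 comparisons with Control, and the share of all genes called was 0% in each. The genes with an unadjusted p under 0.05 numbered 944 for morphine, 1820 for metamorphine, 430 for TRV130, 2198 for beta-endorphin and 1545 for naloxone. DESeq2 called 0 genes for morphine and for metamorphine and 1 for each of the other 3, none of them a member. The 5 comparisons share the 3 Control libraries.

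**Figure D1:**
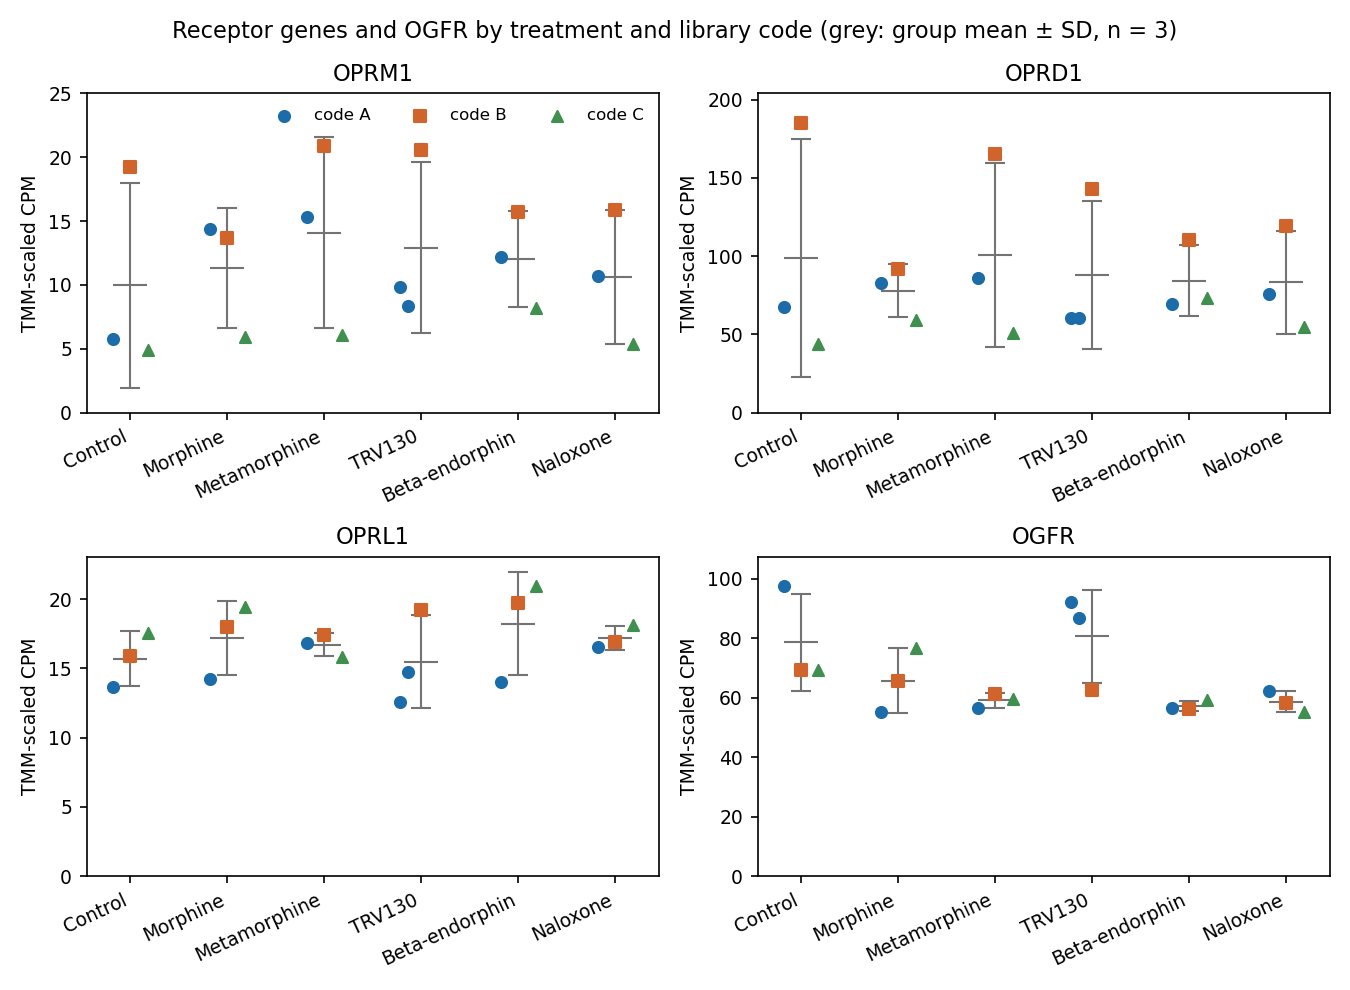
Levels of OPRM1, OPRD1, OPRL1 and OGFR in TMM-scaled CPM (vertical axis, from 0) in each of the 18 libraries by treatment group, with symbols for the library code and grey bars for the group mean ± SD of 3 libraries. Code B libraries (squares) are the highest for OPRD1 in every group and code C libraries (triangles) the lowest for OPRM1 in every group that has one, while OGFR is highest in Control 1, TRV130 1 and TRV130 2.

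OPRM1, the main target of morphine, held 5.78, 19.3 and 4.93 CPM in Control 1, 2 and 3. Morphine libraries held 14.4, 13.7 and 5.89 CPM of it and metamorphine libraries 15.4, 20.9 and 6.06. TRV130 libraries held 9.83, 8.31 and 20.6 CPM, beta-endorphin libraries 12.2, 15.8 and 8.19, and naloxone libraries 10.7, 15.9 and 5.37. Control alone ranged from 4.93 to 19.3, and each ligand group overlapped it. The log2 fold changes of OPRM1 against Control were 0.18 for morphine, 0.50 for metamorphine, 0.37 for TRV130, 0.27 for beta-endorphin and 0.09 for naloxone, with standard errors of 0.571 to 0.572. The interval for metamorphine, the largest of these values, ran from -0.71 to 1.71 on the log2 scale (95%), which allows a change in either direction. That fit ignores the library code. Set against the Control library of the same code, the metamorphine libraries were above it by 1.40 (A), 0.12 (B) and 0.29 (C) on the log2 scale and the TRV130 libraries by 0.76 and 0.52 (A) and 0.10 (B), so all 3 libraries of both groups lay above their Control. With the code as a block in edgeR, the OPRM1 values were 0.56 for metamorphine (unadjusted p 0.0455, adjusted p 0.206) and 0.21 for TRV130 (adjusted p 0.977), and neither passed.

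OPRD1, the target that beta-endorphin shares with the enkephalins, held 67.1, 185.3 and 43.6 CPM in the Control libraries. It held 82.6, 91.8 and 59.2 CPM with morphine and 86.0, 165.3 and 50.6 with metamorphine. With TRV130 it held 60.3, 60.5 and 142.7 CPM, with beta-endorphin 69.2, 110.4 and 73.3, and with naloxone 75.5, 119.4 and 54.8. Control had both the highest and the lowest library of the 18, so every ligand group lay inside its range. The log2 fold changes were -0.34, 0.03, -0.17, -0.23 and -0.25 in the order of the groups above, with standard errors of 0.511 to 0.512.

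The size of these values turned on single Control libraries. Without Control 2, the OPRM1 value for the mean of the 5 ligands against Control went from 0.28 to 1.18 on the log2 scale and that of OPRD1 from -0.19 to 0.65. Without Control 3 they were -0.04 and -0.54. None of these passed.

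OPRL1 was the steadiest member. Its Control libraries held 13.6, 15.9 and 17.6 CPM, and the 15 ligand libraries ran from 12.5 (TRV130 1) to 20.9 CPM (Beta-endorphin 3). The largest log2 fold change, 0.21 for beta-endorphin, had a 95% interval of -0.20 to 0.62. The smallest, -0.02 for TRV130, had one of -0.43 to 0.39.

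OGFR was the member with the smallest standard error against Control (0.176 to 0.177 on the log2 scale) and lay below every Control library in all libraries of 3 ligands. Control libraries held 97.5, 69.3 and 69.1 CPM. Metamorphine libraries held 56.4, 61.3 and 59.6 CPM, beta-endorphin libraries 56.4, 56.1 and 59.2, and naloxone libraries 62.3, 58.1 and 55.3, all below the lowest Control library. Morphine libraries held 55.1 (the lowest of the 18), 65.4 and 76.7 CPM and TRV130 libraries 92.1, 86.9 and 62.6, and both groups overlapped Control. The log2 fold changes were -0.41 for metamorphine, -0.46 for beta-endorphin, -0.43 for naloxone, -0.26 for morphine and 0.03 for TRV130, with edgeR adjusted p values of 0.595, 0.513, 0.655, 0.823 and 1.00. The size of the OGFR values also turned on Control 1, its highest library. Without Control 1 they were -0.23 for metamorphine, -0.29 for beta-endorphin and -0.24 for naloxone. Groups that did not overlap Control are not a call here: 0% of genes passed in these comparisons. How many of all genes lay apart from Control in this way was not counted, and these groups share the same Control libraries.

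Morphine and metamorphine were given at different doses, and TRV130, beta-endorphin and naloxone at the same dose. Side by side, OPRM1 averaged 11.3 ± 4.70 CPM (SD, n = 3) with 193 nM morphine and 14.1 ± 7.50 with 169 nM metamorphine, OPRD1 77.9 ± 16.8 and 100.6 ± 58.7, OPRL1 17.2 ± 2.69 and 16.7 ± 0.820, and OGFR 65.7 ± 10.8 and 59.1 ± 2.49. Naloxone, the blocker, was set against the mean of the 4 other ligands. The log2 differences were -0.24 for OPRM1, -0.07 for OPRD1, 0.03 for OPRL1 and -0.15 for OGFR, and the 95% interval for OPRM1 ran from -1.21 to 0.73. The share of all genes called was 0% here too (85 genes with an unadjusted p under 0.05), and neither the 6 groups together nor the mean of the 5 ligands gave a called member.

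**Figure D2:**
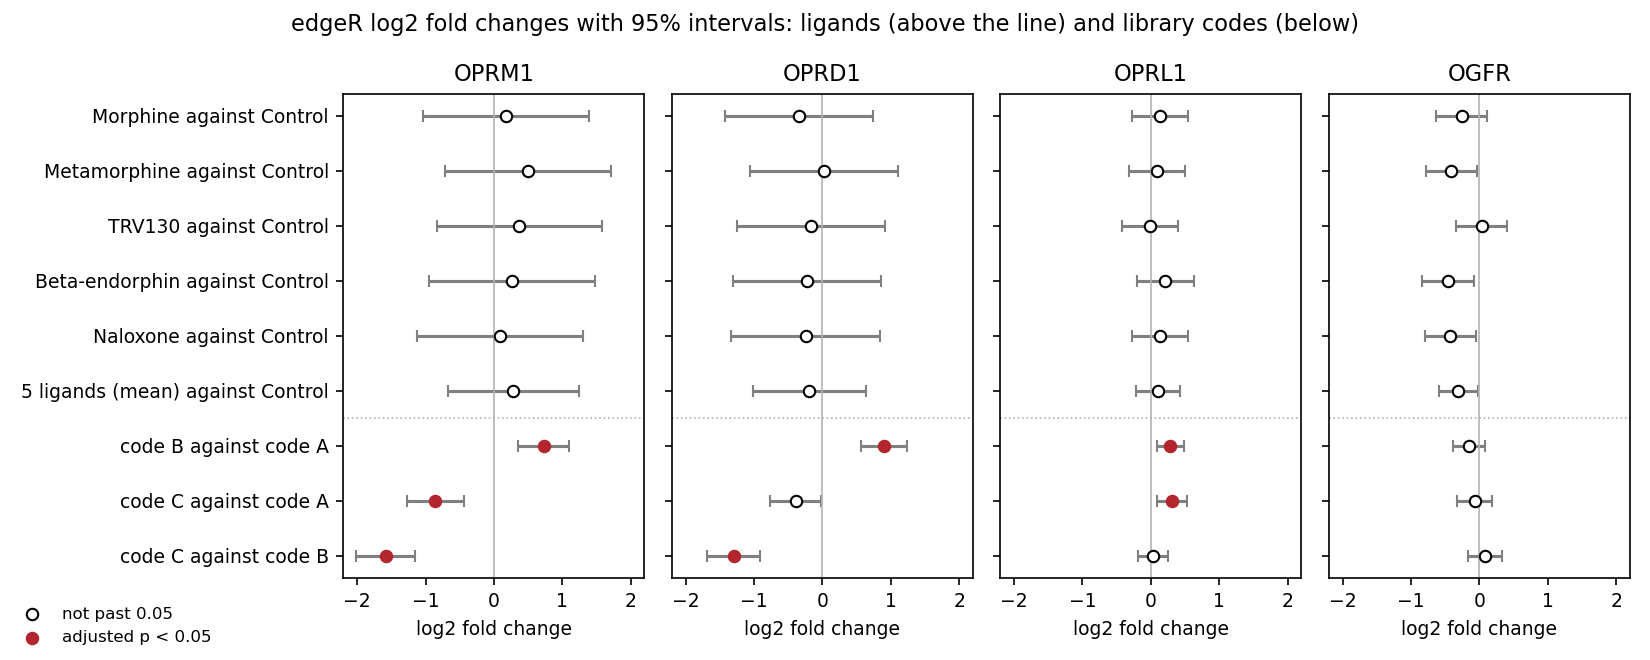
Log2 fold changes from the edgeR fits (horizontal axis) with 95% intervals for the 4 tested members, with the 5 ligands and their mean against Control above the dotted line and the library codes below it. Filled points passed an adjusted p of 0.05; all of them are code differences, of OPRM1, OPRD1 and OPRL1.

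Library codes separated the mu and delta receptor genes, and the treatment tests called neither. These tests were unlike: the treatment tests left the code in the spread, whereas the code tests took the treatment group out. With the code as a block, no ligand comparison called a member either. With the treatment group in the model, 28.3% of 22298 tested genes differed between codes B and A, 34.2% between C and A, 56.0% between C and B and 59.4% among all 3. The members' calls have to be read against these shares, since a gene called between codes is no rarity. OPRM1 and OPRD1 differed among the 3 codes (adjusted p 6.78e-05 and 7.13e-05, edgeR quasi-likelihood test), OPRL1 did so less (adjusted p 0.0206), and OGFR did not pass (adjusted p 0.459). Thus 3 of the 4 tested members were called among the codes.

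OPRM1 was highest in code B and lowest in code C. Its levels were 5.78 to 15.4 CPM (median 10.7) in the 7 libraries of code A, 13.7 to 20.9 (median 17.6) in the 6 of code B, and 4.93, 5.89, 6.06, 8.19 and 5.37 in the 5 of code C. Codes B and C did not overlap, whereas A overlapped both. Here and below, how many of all genes lie apart without overlap was not counted. The log2 fold change was 0.73 (SE 0.174, adjusted p 0.00848) for B against A, -0.86 (SE 0.199, adjusted p 0.00468) for C against A and -1.58 (SE 0.203, adjusted p 2.20e-05) for C against B. Without Control 1, TRV130 1 and TRV130 2 the B against A value was 0.39 (adjusted p 0.0901) and no longer passed, and it also missed without TRV130 3 (0.59, adjusted p 0.0545).

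OPRD1 followed the same order in B and C. It ran from 60.3 to 86.0 CPM (median 69.2) in code A and from 91.8 to 185.3 (median 131.0) in code B, with no overlap, and the code C libraries held 43.6, 59.2, 50.6, 73.3 and 54.8. The log2 fold change was 0.90 (SE 0.160, adjusted p 0.00177) for B against A and -1.29 (SE 0.183, adjusted p 3.90e-05) for C against B. C against A, at -0.39 (SE 0.176, adjusted p 0.0969), did not pass. Without the 3 libraries of code A named above, B against A was 0.74 (adjusted p 0.0507).

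OPRL1 did not follow the mu and delta genes. It was lowest in code A (14.6 ± 1.55 CPM, SD, n = 7) and held 17.8 ± 1.43 (n = 6) in code B and 18.4 ± 1.93 (n = 5) in code C. It was higher in B than in A by 0.28 on the log2 scale (adjusted p 0.0346) and in C than in A by 0.31 (adjusted p 0.0290), and C against B was 0.03 (95% interval -0.19 to 0.25). The B against A value passed in 9 of 18 fits that left out 1 library, and C against A in 14 of 18. OGFR averaged 72.4 ± 18.9, 62.1 ± 4.83 and 64.0 ± 8.73 CPM in codes A, B and C, and none of its 3 code differences passed (log2 values of -0.15, -0.07 and 0.08).

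The split of the variance of log2 CPM shows the same contrast between members. The code took 76.2% of the variance of OPRM1 and 78.7% of that of OPRD1 when fitted first, and the treatment group then added 8.04% and 2.37%. For OPRL1 the code took 57.8% and the group 9.68%. For OGFR the code took 10.5% and the group 53.4%, in a design where TRV130 had an additional library of code A in place of one of code C. With 6 groups against 3 codes, the group fits more means and takes a larger share even without any effect. OGFR was highest in Control 1, TRV130 1 and TRV130 2, and it did not pass the test among the 6 groups.

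OPRM1 and OPRD1 moved together between codes. Over all 18 libraries their log2 CPM had a Pearson r of 0.90, which describes 3 sets of libraries that stand apart by code and is given with no test. Within code B, r was 0.90 over 6 libraries (exact permutation p 0.0236, adjusted 0.142; Spearman rho 0.83, exact p 0.0583, adjusted 0.175) and 0.94 without Control 2 and Morphine 2, the libraries farthest from the median of OPRD1. Within code A, r was 0.70 over 7 libraries (exact permutation p 0.0804, adjusted 0.241; Spearman rho 0.82, exact p 0.0341, adjusted 0.137). It fell to 0.26 without Metamorphine 1 and Morphine 1, the libraries of code A highest in OPRD1. Without Control 1, TRV130 1 and TRV130 2 it was 0.76, so the relation within code A depends on which libraries are kept. Code C, with 5 libraries, was not tested. The p-values are two-sided and adjusted over 12 relations, namely the 6 pairs of members in codes A and B.

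**Figure D3:**
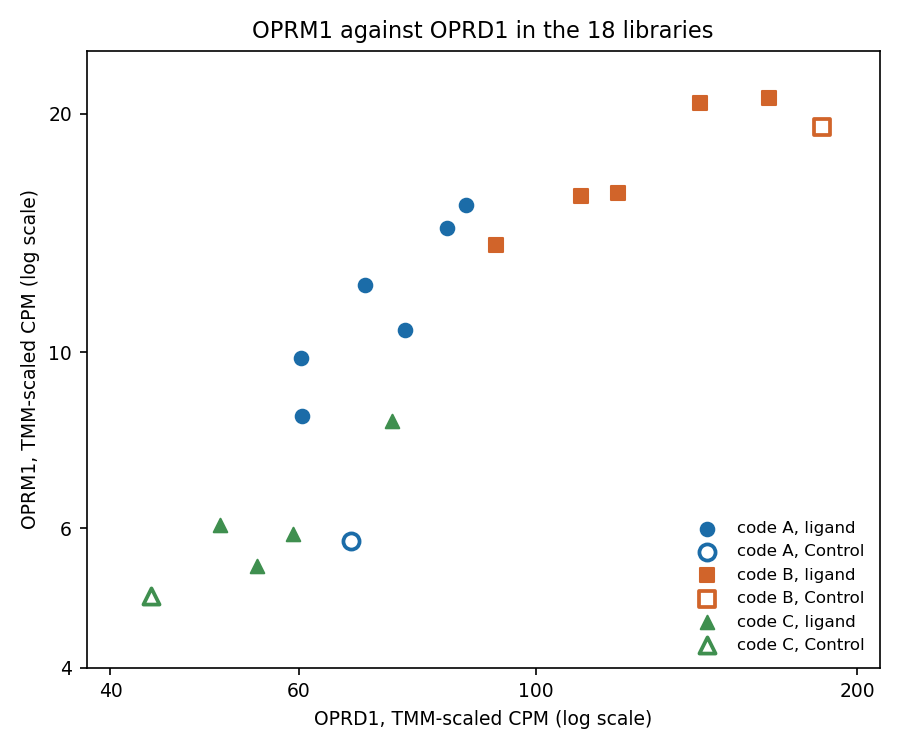
OPRM1 against OPRD1, both in TMM-scaled CPM on log axes, 1 point per library, with shape and colour for the library code and open symbols for Control. Code B fills the upper right and code C the lower left; Control 1 lies below the other code A libraries in OPRM1 at a like level of OPRD1.

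The factor between the genes was not the same in every code. OPRD1 CPM divided by OPRM1 CPM ran from 5.60 to 11.6 (median 6.13) in code A, from 6.73 to 9.63 (median 7.26) in code B, and in code C was 8.85, 10.1, 8.35, 8.95 and 10.2 (median 8.95). Code C thus had relatively less OPRM1. The log2 ratio of OPRM1 to OPRD1 differed by -0.44 between C and A (exact permutation test, two-sided, p 0.0303, adjusted over 3 pairs of codes 0.0455), by -0.28 between C and B (exact p 0.0238, adjusted 0.0455) and by -0.16 between B and A (exact p 0.384). Without Control 1 the last of these was -0.28 and passed (exact p 0.0238). The calls for C lie close to the threshold: without the TRV130 libraries the adjusted p was 0.107 for both (differences of -0.43 and -0.26).

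Control libraries had the highest ratio of OPRD1 to OPRM1 in codes A and B. Control 1 stood at 11.6 against 5.60 to 7.27 in the 6 ligand libraries of code A, and Control 2 at 9.63 against 6.73 to 7.91 in the 5 of code B. In code C, Control 3 at 8.85 lay within the 8.35 to 10.2 of the 4 ligand libraries. On the log2 scale, OPRM1 relative to OPRD1 was higher in ligand libraries than in the Control of the same code by 0.89 in code A (6 of 6 libraries), by 0.42 in code B (5 of 5) and by -0.08 in code C (1 of 4). The mean over codes was 0.41, with an exact permutation p of 0.0190 when the Control label was moved within each code (210 arrangements, smallest possible p 0.00476, two-sided). This comparison was chosen after its values were seen. Its size rests on Control 1: without that library, which leaves codes B and C, the mean was 0.17 (exact p 0.200). Without Control 2 it was 0.40 and no longer passed (exact p 0.114), with fewer arrangements to draw on, and without Control 3 it was 0.66 (exact p 0.0238).

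**Figure D4:**
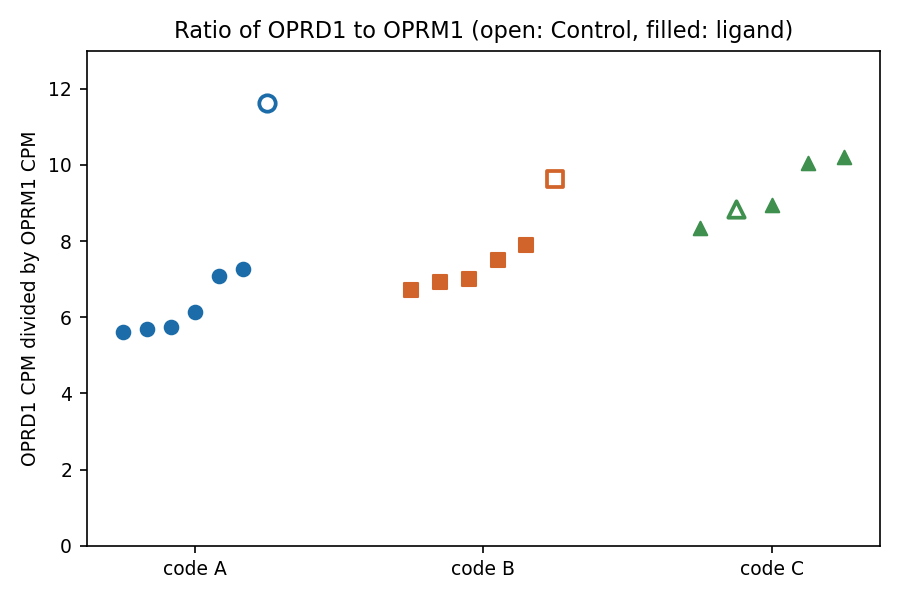
OPRD1 CPM divided by OPRM1 CPM (vertical axis, from 0) in each library, grouped by library code and ordered by value within a code, with open symbols for Control and filled symbols for ligand libraries. The Control library is the highest of code A (11.6) and of code B (9.63) and lies among the ligand libraries in code C (8.85).

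Set against the Control of the same code, OPRM1 and OPRD1 took different directions in different codes, whereas OPRL1 was mostly above Control and OGFR mostly below it in all 3. OPRM1 was above Control in 6 of 6 ligand libraries of code A, 2 of 5 of code B and 4 of 4 of code C, and OPRD1 in 4 of 6, 0 of 5 and 4 of 4. OPRL1 was above it in 5 of 6, 5 of 5 and 3 of 4. OGFR was below Control in 6 of 6, 5 of 5 and 3 of 4, with medians of -0.72, -0.18 and -0.22 on the log2 scale. Each of these counts sets many ligand libraries against 1 Control library, so the libraries of a code share its error. In a fit of these effects by code, added after the values were seen, the ligands against Control called 34.2% of all genes in code A, 0.241% in code B and 0.00861% in code C, and the only member called was OPRM1 in code A (1.03, SE 0.322, adjusted p 0.0225, edgeR). The difference of the ligand effect called 3.46% of genes between codes B and A, 1.71% between C and A and 0% between C and B, with no member among them. The code A value rests on Control 1 alone.

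OGFR went with a split inside code A. It held 86.9 to 97.5 CPM in Control 1, TRV130 1 and TRV130 2 and 55.1 to 62.3 in the other 4 libraries of code A, without overlap. In the same libraries OPRM1 held 5.78 to 9.83 and 10.7 to 15.4 CPM, OPRD1 60.3 to 67.1 and 69.2 to 86.0, while OPRL1, at 12.5 to 14.7 and 13.98 to 16.8, overlapped between them. The scaling factors and mitochondrial shares given above split the same libraries in the same way, and their part in the levels of OGFR, OPRM1 and OPRD1 was not tested. OPRM1 and OGFR had an r of -0.88 over the 7 libraries (exact permutation p 0.00179, adjusted 0.0214; Spearman rho -0.93, exact p 0.00675, adjusted 0.0810). It was the only 1 of the 12 relations to pass on Pearson's r, none passed on Spearman's rho, and the 7 libraries form separate sets. It was -0.86 without Control 1 and Metamorphine 1, and -0.81 within the 4 libraries without the 3 that stand apart. In code B the same pair had an r of 0.20 (exact permutation p 0.674).

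Other genes tracked each member more closely than the members tracked each other. Likeness was the Pearson r of log2 CPM over the 18 libraries, among 11996 protein-coding genes averaging 5 CPM or more, and it shares library, depth and code between genes. OPRD1 ranked 320 for OPRM1 and OPRM1 ranked 43 for OPRD1. Most like OPRM1 were TENM4 (r 0.96), a teneurin of neuronal wiring, LHX4, ZZEF1, STAG3 and TTBK1. Most like OPRD1 were GRAMD1B (r 0.95), a sterol transfer protein, ACACB, ZNF785, GOLGA3 and BCAS3. With the mean of each code taken out, AGO3 (r 0.94), ZNF445 and ZNF417 were closest to OPRM1, and ZNF785 (r 0.87), ADAMTSL4 and MFSD4B to OPRD1.

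OPRL1 had looser company. Its closest genes were CHST11 (r 0.85), SERINC3, SYTL4, KDSR and ELMOD1, and QSOX1 (r 0.87), TMEM104 and NFE2L1 with code means taken out. OGFR was matched most tightly of all, by PTOV1 (r 0.97), PRAF2, ISYNA1 and DUS1L, and by TRMT1 (r 0.99), AC120114.4 and INAFM1 with code means taken out.

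The libraries carry no strand information, so overlapping genes bear on what can be read of the members. OPRD1 shares 520 exon bases with the antisense gene AL009181.1, which had 275 to 955 reads per library, the most in Control 1. AL009181.1 did not pass between any codes (C against B -0.46, edgeR adjusted p 0.0901, against -1.29 for OPRD1). OPRM1 shares 164 exon bases with IPCEF1, which had 5 to 27 reads. OGFR-AS1 lies within OGFR with no shared exon base and had 14 to 40 reads. RGS19, a regulator of G protein signalling, starts 184 bases from OPRL1 on the other strand. It did not follow its neighbour: RGS19 was lower in code B than in A by -0.34 on the log2 scale (adjusted p 0.0182), where OPRL1 was higher, and higher in C than in B by 0.52 (adjusted p 0.000656), where OPRL1 did not pass (0.03).

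The ligand genes of these receptors were near silent. POMC, PENK, PDYN and PNOC, the precursors of beta-endorphin, enkephalins, dynorphins and nociceptin, averaged at most 0.110 CPM (POMC) and 0 of 4 passed the low-count filter. The processing enzymes were partly present: CPE averaged 118.3 CPM and PAM 65.8, while PCSK2 averaged 0.786 and PCSK1 0.147. In the 5 comparisons with Control, 0 of the genes tested in the lists of processing, breakdown, G protein, effector, desensitisation, trafficking, OPRM1 regulator and OGFR genes were called, as 0% of all genes were.

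Between codes C and B, most tested genes of G protein subunits and desensitisation were higher in C, and most tested effector genes were lower. Here 27.6% of all genes were called higher in C and 28.3% lower, with a median log2 fold change of -0.03 over all genes. Of 13 listed G protein subunit genes, 10 were higher in C and 1 lower (median 0.35), led by GNAZ (0.52), GNG2 (0.67), GNAI3 (0.57) and GNAI1 (0.60). This list holds inhibitory alpha subunits together with beta and gamma subunits. Of 12 genes of receptor desensitisation, which phosphorylate receptors, bind them or turn off G proteins, 8 were higher and 1 lower (median 0.38), with RGS4 at 0.76 and GRK6 at 0.55. Of 12 effector genes tested of 16, 0 were higher and 8 lower (median -0.34), among them the N-type calcium channel gene CACNA1B (-1.11) and the adenylyl cyclase genes ADCY6 (-0.85) and ADCY9 (-0.78). OPRM1 and OPRD1 were lower in C too. Cell-state markers moved in the same comparison. Of 8 noradrenergic markers 5 were higher in C and 1, DBH (-0.86), lower (median 0.35). Of 6 tested mesenchymal-state markers 2 were higher and 3, FN1 (-1.23), COL1A1 (-1.20) and NOTCH2 (-1.34), lower (median -0.73). TWIST1, which had the smallest p of this list and its highest mean level (172 CPM), was among the higher. The summed CPM of the noradrenergic list overlapped between B (4923 to 5774) and C (5042 to 5797), as did that of the mesenchymal list (265.5 to 314.8 and 292.8 to 323.9). Mitochondrial reads were 8.02% to 15.7% in B and 4.66% to 9.47% in C. The part of these in the pathway counts was not tested.

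Peptide breakdown genes were lower in C than in B in 5 of 7 cases and higher in 0 (median -0.64), with ACE at -1.32 and ECE1 at -0.64. Of 9 tested genes of receptor partners and trafficking, 1 was higher and 5 were lower, with FLNA, a filamin that binds the mu receptor, at -1.01 and GPRASP1, a sorting protein of the delta receptor, at -0.64. Among 9 transcription regulators linked to OPRM1, 3 were higher and 2 lower (median 0.13): PCBP1 (0.46) and HNRNPK (0.52) were higher and SP1 (-0.50) was lower. Of 3 tested processing enzymes none was called. Of the 4 genes listed as related to OGFR, CDKN2A (1.11) and OGFRL1 (0.42) were higher, and CDKN1A (0.15) and OGFR-AS1 (-0.46) did not pass.

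**Figure D5:**
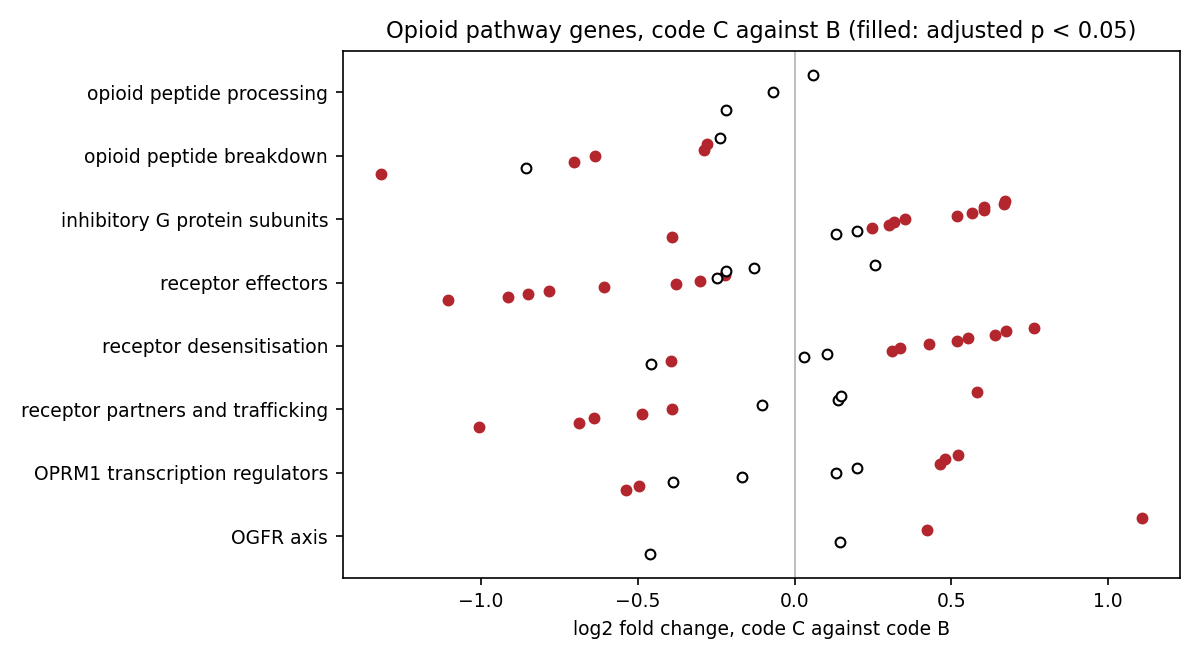
Log2 fold change between codes C and B (horizontal axis) for each tested gene of 8 opioid pathway lists (rows), filled where the edgeR adjusted p was below 0.05. The row of inhibitory G protein subunits also holds beta and gamma subunits. Its genes and the desensitisation genes lie mostly to the right (10 and 8 higher). Effectors and peptide breakdown genes lie mostly to the left (8 and 5 lower).

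Between B and A, 3 of 13 G protein genes were lower and 0 higher, 5 of 12 desensitisation genes lower and 1 higher, and 3 of 12 effectors higher and 0 lower, with 12.2% of all genes higher and 16.2% lower. Breakdown genes were higher in 2 of 7 cases and lower in 0, partners and trafficking genes higher in 3 of 9 and lower in 2, OPRM1 regulators higher in 3 of 9 and lower in 2, processing enzymes higher in 2 of 3 and lower in 1, and OGFR-related genes higher in 0 of 4 and lower in 1. RGS4 (-0.76) and GRK6 (-0.38) were lower in B, and ADCY6 (0.53) and ADCY9 (0.50) higher. Between C and A, 7 of 13 G protein genes were higher and 1 lower, and 0 of 12 effectors higher and 5 lower, with 16.5% of all genes higher and 17.7% lower. Desensitisation genes were higher in 2 of 12 cases and lower in 0, a share near that of all genes. Breakdown genes were higher in 0 of 7 cases and lower in 3, partners and trafficking genes higher in 2 of 9 and lower in 3, OPRM1 regulators higher in 2 of 9 and lower in 0, processing enzymes higher in 1 of 3 and lower in 1, and OGFR-related genes higher in 1 of 4 and lower in 0. These counts describe the lists beside the same counts over all genes and were not set against other lists.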

How the data were processed

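RNA was measured in 18 libraries. Per the labels' protocols, RNA was taken with TRIzol and DNase I, and libraries were non-stranded and read in pairs. The authors deposited 1 table of raw counts, a row per Ensembl identifier. The tools named in the submitters' processing notes are HISAT2, featureCounts, FastQC and DESeq2, on the build GRCh38 (hg38); for versions, settings and annotation, nothing is given in the sources used here. Symbols, positions and exon lengths came from GENCODE 29, promoter windows from RefSeq (GRCh38.p14).

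The members, the gene lists and the tests were chosen with earlier results of these data known. Tests were robust quasi-likelihood tests of edgeR 4.0.16 (R 4.3.3) after filterByExpr (minimum count 10) and TMM scaling, with Benjamini-Hochberg adjustment over every gene tested and a threshold of 0.05. Treatment comparisons used 1 mean per group over all libraries (23231 genes), and code comparisons added the group (22298 genes). CPM use TMM-scaled totals, and log2 CPM a prior count of 2. Ratios and correlations of the members were tested with exact permutation. Named pathway genes are the up to 4 of a list with the smallest p, and most alike genes the 5 (3 with code means taken out) with the highest r; a few genes that these rules select are not reported here. The test script was checked on simulated data. Alternatives were no low-count filter, RLE size factors, DESeq2 1.42.0, the compared groups alone, replicate number or library code as a block, no group term, other prior counts, and each library left out. Totals ran from 21211449 to 33123855 counts, and the standard errors also hold the spread between libraries. Fits without Control 1, TRV130 1 and TRV130 2, the fit of ligand effects by code and the ratio of ligand to Control libraries were added after seeing the data.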

Additional observations from a re-analysis of the deposited data

Results flagged for a closer look

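OPRD1 moved in opposite directions from Control in different library codes. All 5 ligand libraries of code B lay below Control 2, with a median of -0.63 on the log2 scale, and all 4 of code C lay above Control 3, with a median of 0.38. In code A, 4 of 6 lay above Control 1 and 2 below. The difference of the ligand effect between codes C and B, fitted with edgeR after these values had been seen, was 1.01 on the log2 scale (SE 0.365), with an adjusted p of 0.966 over 23231 genes, of which 0% were called. Each code has 1 Control library, so the direction in a code rests on that library. No library stood out by Dixon's criterion in the 12 sets of a member and a code that were checked.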

How the results depend on the processing

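No ligand comparison over all codes called a member under any alternative run. Within single codes, the added fit of ligand effects called OPRM1 in code A (1.03 on the log2 scale), which rests on Control 1. The number of genes called was 0 for every single ligand except with DESeq2, which called 1 each for TRV130, beta-endorphin and naloxone, and 9 among the 6 groups. For the mean of the 5 ligands against Control it was 3270 with no low-count filter, 12 with DESeq2, 1 with the library code block, 1 with that block and without Control 1, and 0 to 366 with 1 library left out, the highest without Control 3; the cause was not tested. Of the code comparisons, code B against code A called 6318 genes, 1922 without the TRV130 libraries, 2158 without Control 1, TRV130 1 and TRV130 2, and 2546 (without TRV130 3) to 7836 with 1 library left out. Left-out ranges were 4828 (without Naloxone 3) to 8854 for C against A, 10760 to 13563 for C against B and 11419 to 14261 among the 3 codes.

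OPRM1 and OPRD1 kept their direction and their call for C against B in all alternatives and in all 18 fits with 1 library left out. OPRM1 B against A missed without the TRV130 libraries (0.60, adjusted p 0.0696). OPRD1 C against A passed with no low-count filter (-0.33, adjusted p 0.0244). The difference of the log2 ratio of OPRM1 to OPRD1 was -0.43 (C against A) and -0.26 (C against B) without the TRV130 libraries, and with 1 library left out ranged from -0.28 to -0.087 for B against A (called without Control 1), from -0.56 to -0.39 for C against A and from -0.35 to -0.25 for C against B. The mean ratio difference of ligand and Control libraries ranged from 0.17 to 0.66. The OPRM1 and OGFR correlation in code A was -0.86 without the 2 farthest libraries and -0.81 without the 3 that stand apart, with no p computed.

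With the replicate block, every treatment comparison called 0 genes, and OPRM1 for the mean of the 5 ligands was 0.43 (adjusted p 0.536). It changed no call. Libraries of the same number in different groups had correlations of -0.56 to 0.76, 29 of 45 above 0.1, and were not read as pairs. The number mostly follows the library code: libraries of the same code had a median of 0.43 (36 of 45 above 0.1) and those of different codes -0.19. OPRK1, with 22 reads in all 18 libraries together, did not pass the low-count filter and was not tested.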
